A study of Mus musculus with 6 samples.

Results

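The alpha-arrestins are a family of adaptor proteins, represented here by the 5 genes Arrdc1, Arrdc2, Arrdc3, Arrdc4 and Txnip, taken by name from a table of 17342 named genes. All 5 had a row and all 5 passed the filter on low values. They were chosen by family name but with the genotype differences in these FPKM values already known, Arrdc3 having been among the genes with the smallest p. The differences between genotypes for the 5 genes are therefore given as a description, without a test, and support nothing by themselves.

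RNA was sequenced from the inguinal fat pad, a white subcutaneous depot, of C57BL/6 mice aged 8 weeks after cold stimulation. Of the 6 libraries, 3 came from wild-type (WT) mice, numbered 1 to 3, and 3 from Rarres2-/- mice, numbered 4 to 6, which lack chemerin, a protein secreted by adipocytes. Both groups were cold-stimulated, and no unstimulated fat was analysed here. The sources used here do not give the temperature and duration of the cold, the sex of the mice, the deleted part of Rarres2 or whether each library is 1 mouse, so any p-value measures only the spread between these libraries. Levels are FPKM (fragments per kilobase of transcript, scaled to the fragments mapped in the library), a per-length scale on which levels of different genes can be compared.

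Proteins with the arrestin fold link membrane proteins to the machinery that sorts them. ARRDC1 to ARRDC4 carry short proline-rich motifs that recruit ubiquitin ligases of the NEDD4 family to receptors and transporters, which are then ubiquitinated and moved into endosomes. TXNIP, the thioredoxin-interacting protein, binds thioredoxin, and TXNIP and ARRDC4 are both known to limit glucose uptake. ARRDC3 is known as a regulator of beta-adrenergic receptors, the receptors through which cold activates fat, and of body fat in mice. The Txnip and Arrdc4 genes are textbook targets of the glucose-sensing transcription factors MondoA (Mlxip) and ChREBP (Mlxipl).

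The sequence just before the start of transcription is shown for Txnip, Arrdc4 and Arrdc3, the first because its glucose-response element is well known, the other two as the family members that share its regulator or that differed most between genotypes. The sequences are the 250 bases before the RefSeq start (build GRCm38.p6), 5′ to 3′ on the gene's strand. Capitals mark matches on either strand to CCAAT, to the E-box CACGTG, to the FoxO element GTAAACA and to a repeat of CACGAG separated by 5 bases.
Txnip, chr3:96557707-96557956, plus strand: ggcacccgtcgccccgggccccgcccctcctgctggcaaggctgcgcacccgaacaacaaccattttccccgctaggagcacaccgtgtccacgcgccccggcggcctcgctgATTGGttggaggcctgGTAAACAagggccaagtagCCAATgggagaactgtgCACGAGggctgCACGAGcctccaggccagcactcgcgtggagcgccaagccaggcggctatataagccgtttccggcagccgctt
Arrdc4, chr7:68749239-68749488, minus strand: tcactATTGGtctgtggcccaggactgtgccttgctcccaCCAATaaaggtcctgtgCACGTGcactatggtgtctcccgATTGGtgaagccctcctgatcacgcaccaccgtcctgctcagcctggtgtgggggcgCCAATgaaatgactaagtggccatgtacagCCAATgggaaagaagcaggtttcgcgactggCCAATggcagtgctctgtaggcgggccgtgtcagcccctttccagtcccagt
Arrdc3, chr13:80883134-80883383, plus strand: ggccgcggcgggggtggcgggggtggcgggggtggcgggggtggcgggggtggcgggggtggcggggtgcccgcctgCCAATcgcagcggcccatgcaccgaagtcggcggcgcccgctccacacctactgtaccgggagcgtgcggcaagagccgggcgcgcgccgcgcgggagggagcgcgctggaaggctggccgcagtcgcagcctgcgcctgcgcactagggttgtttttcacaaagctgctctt

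In the Txnip sequence the CACGAG repeat spans bases 85 to 69 before the start and is flanked upstream by 2 CCAAT boxes and 1 FoxO element (bases 121 to 115). The repeat was searched for after the sequence had been seen, and of 32851 RefSeq windows of this length only the Txnip window holds it, so its rarity reflects how the letters were picked. The Arrdc4 sequence holds 1 E-box, present in 6.02% of all windows, and 6 CCAAT boxes. At least 1 CCAAT box is present in 33.8% of windows, and the FoxO element in 3.17%. The Arrdc3 sequence holds 1 CCAAT box, a GC content of 76.0% (median of all windows 52.4%) and none of the other capitalised motifs. A pair of E-boxes (CACGTG) separated by any 5 bases was in 0 of the windows, those of the alpha-arrestin genes included. RefSeq gives 7 windows for the 5 genes, 3 of them for Arrdc3. The complete glucocorticoid response element (AGAACA and TGTTCT separated by any 3 bases), its shorter form AGAACA, the cAMP response element (TGACGTCA) and TATAAA were in none of the 7. Those 4 motifs were in 0.00913%, 16.1%, 1.55% and 12.4% of all windows. The shorter cAMP element TGACG, in 17.8% of all windows, was in 1 of the 7, a second Arrdc3 window. The GC box GGGCGG, in 32.7% of all windows, was in the windows of Arrdc1, Arrdc2 and Txnip and in 2 of those of Arrdc3. These matches describe letters, not bound sites.

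The libraries differ in ways that genotype does not account for. Rarres2 itself was at 436 to 610 FPKM in WT mice and at 0.260 to 6.35 FPKM in Rarres2-/-, as the labels say. Absolute depth is unknown, and the spacing of the lowest values put depth at 0.488 times that of WT replicate 2 in WT replicate 1 and between 0.697 and 1.01 times in the others. WT replicate 1 and Rarres2-/- replicate 4 stood apart in endothelial markers (7 of 7 genes with a row, 0 at 0 throughout), 6 of which were higher in both than in any other library, with summed levels of 252 and 167 FPKM against 46.8 to 55.2 FPKM in the other 4 libraries. The exception was Tek, at 10.1 and 10.5 FPKM against 6.22 to 14.6 FPKM. WT replicate 1 also had the highest skeletal muscle sum (1338 FPKM, others 167 to 505) and the lowest macrophage sum (407 FPKM, others 804 to 1755). Its sum of fibroblast and progenitor markers was the lowest as well (1452 FPKM, others 2706 to 5761). The muscle markers Mb, Myh1 and Myh2 went the other way. They were at 0.513, 0.158 and 0 FPKM in WT replicate 1, against up to 22.1, 4.01 and 2.03 FPKM in Rarres2-/- libraries. Of the 9 tested muscle markers, 1 (Myh1) had genotypes that did not overlap, with Rarres2-/- higher (background 5.81%). Of the 10 macrophage markers, 10 had a log2 difference below 0 between genotypes (median -0.24), with overlapping sums. With 1 library left out the sign changed for several of them, such as Csf1r (-0.87 to 0.26). It stayed below 0 for others, such as Cd163 (-1.02 to -0.12). The part of these cell types in the differences below was not tested. The white adipocyte markers were present throughout, with Adipoq (adiponectin) at 2118 to 2809 FPKM, but their sum, mostly Fabp4, was lowest in Rarres2-/- replicate 4 (30089 FPKM, others 41926 to 63860). Of the 8 genes, 4 (Adipoq, Fabp4, Pparg and Retn) were lowest in that library. Plin1 was highest there, though barely, at 844.3 FPKM against 843.8 FPKM in Rarres2-/- replicate 6. Between genotypes, 6 of the 8 had a log2 difference above 0 (median 0.15). Plin1, Cidec and Lipe did not overlap, with Rarres2-/- higher (3 of 8, background 5.81%), and 0 did so with Rarres2-/- lower (background 4.53%). Rarres2-/- replicate 4 was also the highest library for Arrdc2, Arrdc3 and Txnip. In bulk tissue, fewer cells of a type and less RNA per cell cannot be told apart.

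**Figure D1:**
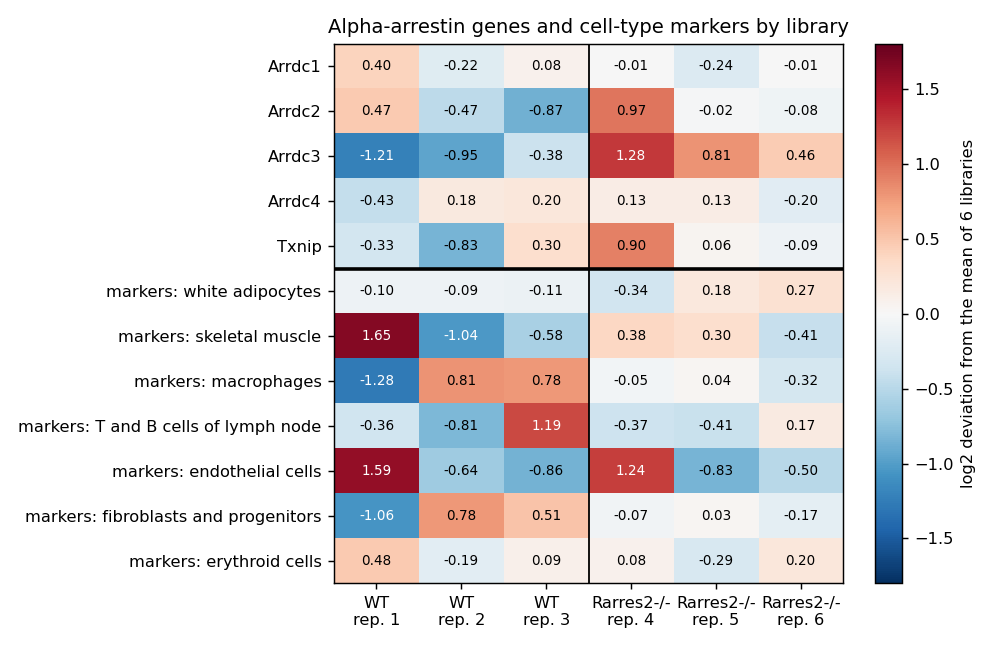
Log2 deviation of each library from the mean of all 6, on the log2(FPKM + 1) scale, for the 5 alpha-arrestin genes (top rows) and as the median over each cell-type marker list (bottom rows). Endothelial markers are high in WT replicate 1 (1.59) and Rarres2-/- replicate 4 (1.24), and Arrdc2 is highest in the same 2 libraries.

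In WT fat the 5 genes lay at very different levels. Txnip was the most abundant at 322 ± 127 FPKM (SD, n = 3), above 97.3% of the 11086 tested genes. Arrdc3 followed at 11.6 ± 3.85 FPKM, Arrdc1 at 7.47 ± 1.83 FPKM, Arrdc4 at 6.45 ± 1.70 FPKM and Arrdc2 at 4.05 ± 2.53 FPKM. Txnip was apart from the rest in every library, whereas the neighbours in the order Arrdc3, Arrdc1, Arrdc4 and Arrdc2 overlapped in their WT libraries. In Rarres2-/- fat the order was Txnip (480 ± 192 FPKM), Arrdc3 (39.9 ± 11.8 FPKM), then Arrdc4, Arrdc1 and Arrdc2, which lay between 6.38 and 6.54 FPKM and did not differ beyond their spread. There Arrdc3 was above Arrdc1, Arrdc2 and Arrdc4 in every library. Of the summed FPKM of the 5 genes, Txnip held 91.0 ± 2.30% in WT and 88.7 ± 1.31% in Rarres2-/- (SD, n = 3 each), with overlapping libraries.

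Arrdc3 (chromosome 13, 80883384 to 80896042, GRCm38) is the alpha-arrestin linked to beta-adrenergic receptors. It was at 8.54, 10.4 and 16.0 FPKM in WT replicates 1, 2 and 3 and at 52.6, 37.7 and 29.4 FPKM in Rarres2-/- replicates 4, 5 and 6. Every Rarres2-/- library lay above every WT library, and the lowest Rarres2-/- value was 1.84 times the highest WT value. The means differed 3.43-fold, and the log2 difference on log2(FPKM + 1) was 1.70 (SE 0.287). Groups that did not overlap with Rarres2-/- higher were found for 5.81% of tested genes, and this contrast was used in the choice of Arrdc3, so nothing is read from the separation. The 2 libraries that stood apart held the extremes of Arrdc3, lowest in WT replicate 1 and highest in Rarres2-/- replicate 4. Without both of them the values were 10.4 and 16.0 FPKM against 37.7 and 29.4 FPKM, a 2.54-fold ratio of means and a log2 difference of 1.30. With any 1 library left out the log2 difference was 1.48 to 1.93. In GENCODE the gene model 1700023H06Rik, which has no row here, overlaps Arrdc3 over 1301 bases on the opposite strand.

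Txnip (chromosome 3, 96557957 to 96561857) was at 296, 210 and 460 FPKM in the WT libraries and at 700, 388 and 350 FPKM in the Rarres2-/- libraries. The groups overlapped, as WT replicate 3 lay above Rarres2-/- replicates 5 and 6. The log2 difference was 0.58 (SE 0.382), and leaving out 1 library gave 0.27 (highest library, Rarres2-/- replicate 4, removed), 0.31 (lowest library, WT replicate 2, removed) and 0.87 (WT replicate 3 removed). With WT replicate 1 and Rarres2-/- replicate 4 both removed it was 0.25, where the means were 335 and 369 FPKM. In GENCODE, whose Txnip bounds differ from those given here, an antisense gene, Gm15441, overlaps Txnip over 3927 bases on the opposite strand. It was at 0.517 to 0.979 FPKM, and the sources used here do not say whether counting used strand, so reads of the pair cannot be told apart.

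Arrdc2 (chromosome 8, 70835129 to 70839720) was at 6.92, 3.11 and 2.12 FPKM in WT mice and at 10.1, 4.60 and 4.41 FPKM in Rarres2-/-. Within each genotype the highest value came from the library with high endothelial markers, WT replicate 1 or Rarres2-/- replicate 4, and the groups overlapped through WT replicate 1. The log2 difference of 0.58 (SE 0.417) was similar to its value without those 2 libraries, 0.62, where the means were 2.61 and 4.50 FPKM, each over 2 libraries. Removing WT replicate 1 gave 0.96, removing WT replicate 3 gave 0.29, and removing Rarres2-/- replicate 4 gave 0.24. The part of endothelial cells in the level of Arrdc2 was not tested.

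Arrdc1 and Arrdc4 had the smallest log2 differences of the 5 genes, of opposite sign. Arrdc1 (chromosome 2, 24925352 to 24935335), whose protein buds vesicles from the plasma membrane with TSG101, was at 9.39, 5.74 and 7.29 FPKM in WT mice and at 6.80, 5.63 and 6.81 FPKM in Rarres2-/-. All 3 Rarres2-/- values lay below the highest WT value and the groups overlapped, with a log2 difference of -0.17 (SE 0.189) that was -0.02 without WT replicate 1 and -0.33 without WT replicate 2. Arrdc4 (chromosome 7, 68736994 to 68749238) was at 4.49, 7.38 and 7.49 FPKM in WT mice and at 7.10, 7.08 and 5.44 FPKM in Rarres2-/-. Its log2 difference was 0.04 (SE 0.212), and its sign changed with the library left out, from -0.17 without WT replicate 1 to 0.15 without Rarres2-/- replicate 6. Unlike Arrdc2, Arrdc4 had its lowest value of all in WT replicate 1.

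**Figure D2:**
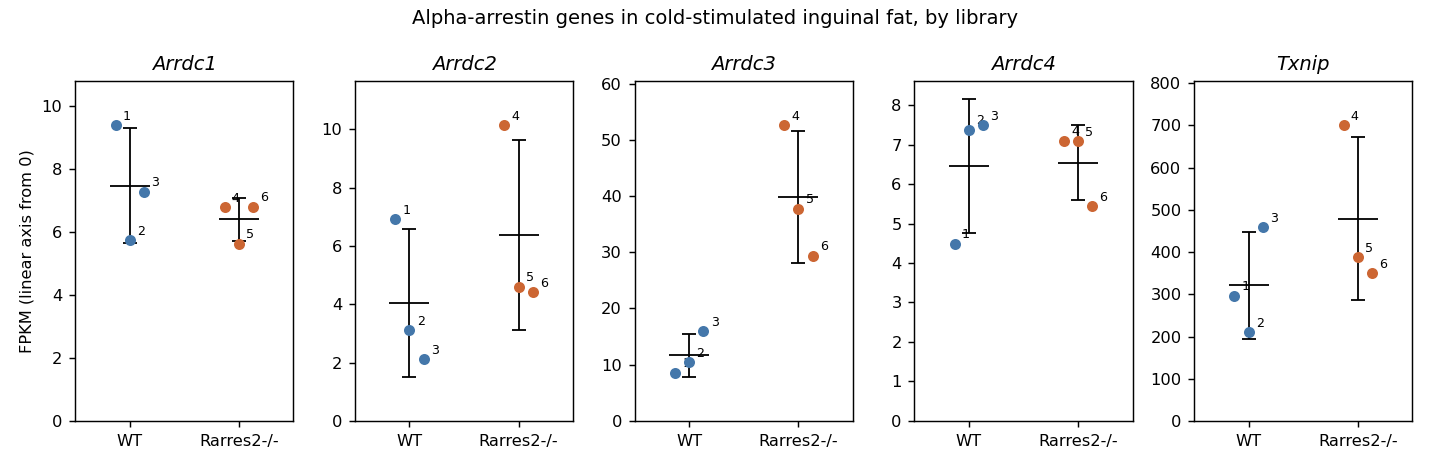
FPKM of each alpha-arrestin gene in each library (points, numbered by replicate) with mean and SD (bars, n = 3 per genotype), on linear axes from 0. Arrdc3 is the gene whose genotypes do not overlap (8.54 to 16.0 FPKM in WT, 29.4 to 52.6 FPKM in Rarres2-/-), and Rarres2-/- replicate 4 is the highest library for Arrdc2, Arrdc3 and Txnip.

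Across the whole table, limma with Benjamini-Hochberg adjustment found 0 of 11086 genes (0.0%) with an adjusted p under 0.05. The smallest adjusted p by limma was that of the deleted gene, Rarres2 (0.0597). As even Rarres2 was not called, the 0 calls do not show that no gene differed. Before adjustment, 436 genes (3.93%) had a p under 0.05. The median log2 difference of all tested genes was -0.01. Among the log2 differences of all tested genes, that of Arrdc3 was number 16 from the top, Arrdc2 was number 196, Txnip 197, Arrdc4 4630 and Arrdc1 8714. When limma estimated a weight for each library (0.192 for WT replicate 1, 0.179 for Rarres2-/- replicate 4, and 0.736 to 6.19 for the rest), 13.7% of genes passed. Without WT replicate 1 and Rarres2-/- replicate 4, 0.613% passed. No call is read for the 5 genes from these fits, since the same contrast was known when they were chosen.

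**Figure D3:**
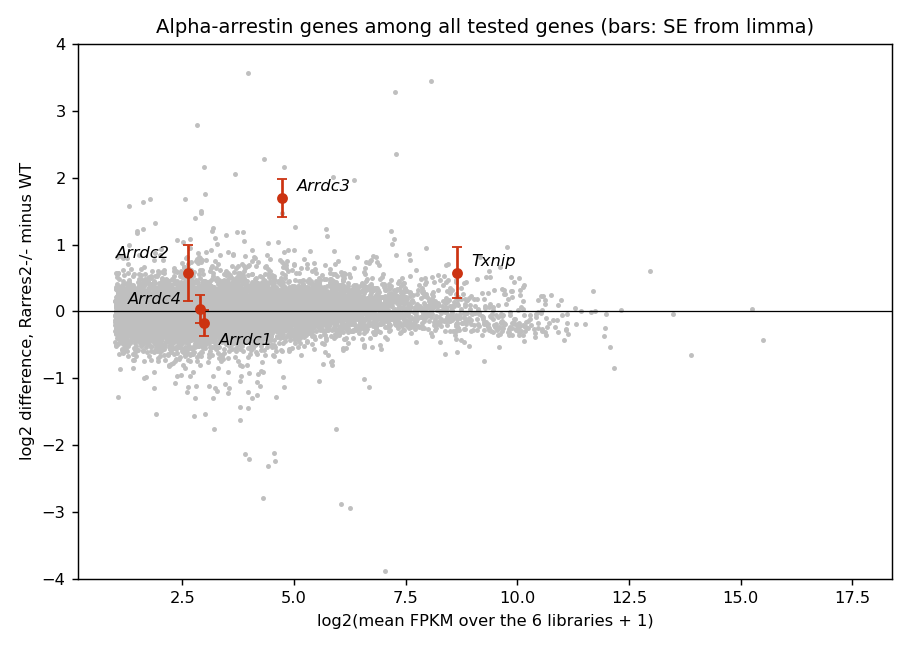
Log2 difference between genotypes (Rarres2-/- minus WT) against mean level for all 11086 tested genes (grey; 7 lie beyond the plotted limit of 4) and the alpha-arrestin genes (red, bars are the SE from limma). Arrdc3 (1.70) lies outside the bulk of genes of its level, and Arrdc1 (-0.17) and Arrdc4 (0.04) lie within it.

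Ratios between genes of 1 library do not depend on how that library was scaled. Those with Arrdc3 restate the contrast used in its choice, so nothing is read from their separation. Arrdc3 made up 29.1%, 39.1% and 48.6% of the summed FPKM of Arrdc1 to Arrdc4 in WT and 68.6%, 68.6% and 63.8% in Rarres2-/-, with no overlap. The summed FPKM of these 4 genes was 29.3, 26.7 and 32.8 in WT and 76.6, 55.1 and 46.0 in Rarres2-/-. Most of that difference was Arrdc3, since Arrdc1 and Arrdc4 lay at like levels in both genotypes. The ratio of Arrdc3 to Arrdc1 was 0.909, 1.82 and 2.19 in WT and 7.74, 6.71 and 4.32 in Rarres2-/-. Arrdc3 to Arrdc4 was likewise apart, at 1.41 to 2.13 in WT and 5.33 to 7.41 in Rarres2-/-. Arrdc3 to Arrdc2 overlapped, at 1.23 to 7.53 and 5.19 to 8.20. Txnip was 34.7, 20.1 and 28.8 times Arrdc3 in WT and 13.3, 10.3 and 11.9 times Arrdc3 in Rarres2-/-. Txnip to Arrdc4, the pair that shares a textbook regulator, overlapped at 28.4 to 66.0 in WT and 54.8 to 98.7 in Rarres2-/-.

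**Figure D4:**
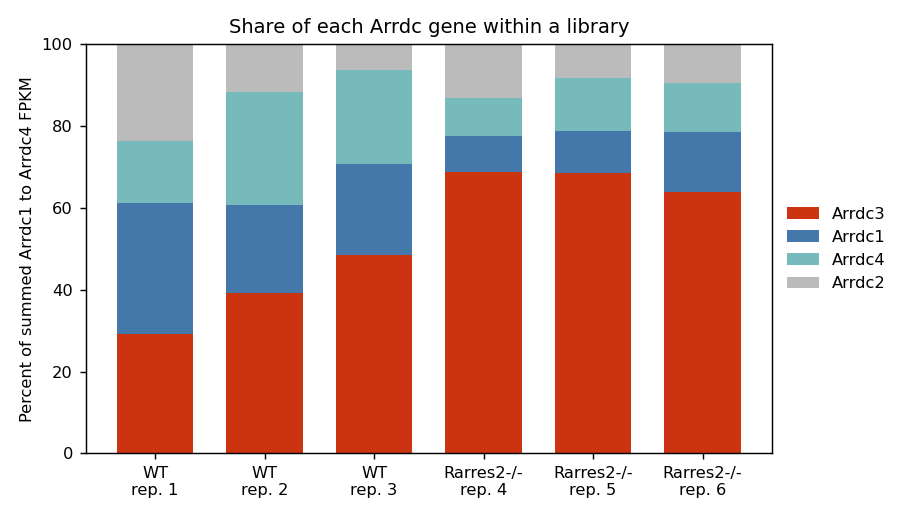
Share of each of Arrdc1 to Arrdc4 in their summed FPKM within each library (stacked bars, percent). The Arrdc3 share is 29.1% to 48.6% in the 3 WT libraries and 63.8% to 68.6% in the 3 Rarres2-/- libraries.

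The genes whose pattern over the 6 libraries was most like each alpha-arrestin were found by the root mean square distance between log2(FPKM + 1) values centred on each gene's mean. Nearest to Arrdc3 were Cxcr4, a chemokine receptor (distance 0.33), Npr3, the clearance receptor for natriuretic peptides (0.34), and Mycl1, a MYC-family transcription factor (0.34). Cxcr4 was at 2.31, 2.06 and 4.29 FPKM in WT mice and 8.15, 10.1 and 8.54 FPKM in Rarres2-/-. Nearest to Txnip were Gyk, the glycerol kinase gene (0.22), Sik1, a kinase induced by cAMP (0.22), and Ehd3, an endosomal trafficking protein (0.24). For Sik1, Rarres2-/- replicate 4 stood out at 15.1 FPKM, against 3.12 to 5.62 FPKM elsewhere. Arrdc2 lay nearest to Mall (0.13), Lrrc8a, a subunit of volume-regulated anion channels (0.16), and Per1, a clock gene (0.16). Per1 was at 19.2, 11.2 and 8.22 FPKM in WT mice and 30.4, 16.2 and 18.9 FPKM in Rarres2-/-. Arrdc1 lay nearest to Nfkbil1 (0.03), Rnf167 (0.04) and Ttf1 (0.06), and Arrdc4 to Mfsd1 (0.03), Polh (0.04) and Erbb2ip (0.04). Most members were not near each other in pattern. Seen from any member, at least 2185 tested genes lay nearer than another member did, except for Txnip seen from Arrdc3. The distance is not scaled to each gene's spread, so genes that vary little lie near each other. The nearest pair, Arrdc1 and Arrdc4, was 0.42 apart, and 8143 tested genes lay nearer to Arrdc1 than Arrdc4 did. Arrdc3 and Txnip were 0.61 apart, with 82 tested genes nearer to Arrdc3 than Txnip was and 6052 nearer to Txnip than Arrdc3 was.

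Genes that work with the alpha-arrestins were described from 8 lists, chosen with earlier results of these data known. Of 102 genes, 101 had a row, 94 were tested and 0 passed over all genes tested by limma in either direction (background 0.0%). The medians below are to be read against the median of all tested genes, -0.01, of which 48.6% had a difference above 0.

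The beta-arrestins and other arrestin-fold proteins had 4 of 6 tested members with a log2 difference above 0 and a median of 0.12, and none with separated genotypes (background 10.3%). Vps26a, a retromer subunit, was at 29.7 ± 4.98 FPKM in WT mice and 36.9 ± 4.45 FPKM in Rarres2-/- (SD, n = 3 each). Arrb1, beta-arrestin 1, was at 7.37 ± 0.689 and 9.27 ± 3.06 FPKM, with its highest value in Rarres2-/- replicate 4, and Arrb2, beta-arrestin 2, at 16.2 ± 2.65 and 15.2 ± 0.435 FPKM. Their log2 differences were 0.31, 0.26 and -0.08, and that of Rgp1 was 0.18. That of Arrb2 changes sign with the library left out (-0.16 to 0.04), and the range for Arrb1 was 0.03 to 0.40.

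The NEDD4-family ubiquitin ligases and their adaptors, the enzymes that alpha-arrestins recruit, had 8 of 9 tested members above 0, with a median of 0.11, and none with separated genotypes. Nedd4 was the most abundant ligase at 139 ± 25.2 FPKM in WT mice and 171 ± 25.5 FPKM in Rarres2-/- (log2 difference 0.30, SE 0.214). Wwp1 (0.21), Smurf1 (0.19) and the adaptor Ndfip1 (0.16) had smaller differences, and those of Wwp1 and Ndfip1 reach -0.02 and -0.06 when 1 library is left out. The ESCRT and vesicle budding partners had 8 of 10 above 0 and a median of 0.07. Of these 10, 1 had separated genotypes, a share near the background of 10.3%. It was Pdcd6ip (ALIX), at 21.5 ± 2.57 and 25.2 ± 0.597 FPKM. Tsg101, the partner of ARRDC1, was at 31.0 ± 2.49 and 36.1 ± 8.59 FPKM and overlapped, and the differences of Stam2 and Vps37a were 0.23 and 0.15.

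The thioredoxin system, which TXNIP binds and inhibits, had 7 of 11 tested members above 0, a median of 0.07 and no separated genotypes. Txnrd1, the cytosolic thioredoxin reductase, was at 16.8 ± 1.64 FPKM in WT mice and 20.7 ± 4.46 FPKM in Rarres2-/-, and the mitochondrial peroxiredoxin Prdx3 at 186 ± 31.1 and 243 ± 111 FPKM. Log2 differences were 0.27 for both, 0.23 for Txnl1 and 0.19 for Txnrd3. Txn1, the thioredoxin bound by TXNIP, is named outside the naming rule for that role, with its values seen. The ratio of Txnip to Txn1 was 1.42, 0.900 and 1.96 in WT and 4.15, 1.49 and 1.29 in Rarres2-/-, so Rarres2-/- replicate 4 alone lay above all WT libraries.

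Receptors and transporters known as cargo of alpha-arrestins had 5 of 9 tested members above 0, a median of 0.18 and no separated genotypes. Adrb1, at 4.51 ± 0.594 FPKM in WT mice and 3.64 ± 0.561 FPKM in Rarres2-/- (SD, n = 3 each), had a log2 difference of -0.25. The more abundant Adrb3, named outside the rule with its values seen, was at 93.4 ± 31.5 and 86.9 ± 34.0 FPKM. Its log2 difference was -0.37 to 0.24 with 1 library left out. Slc11a2, an iron transporter handled by ARRDC1, had a log2 difference of 0.26. That of the glucose transporter Slc2a1 (GLUT1), whose uptake TXNIP limits, was -0.27. Slc2a1 was at 7.88, 4.86 and 4.95 FPKM in WT mice and 5.81, 3.82 and 4.35 FPKM in Rarres2-/-.

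MondoA, ChREBP and their textbook targets had 11 of 14 tested members above 0 and a median of 0.45. Of these 14, 1 had separated genotypes, with Rarres2-/- higher, a share near the background of 5.81%. It was Pdk4, the kinase that shuts off pyruvate dehydrogenase, which is counted in the next list as well. Pdk4 was at 22.4, 17.0 and 59.1 FPKM in WT mice and 216, 68.9 and 97.5 FPKM in Rarres2-/- (log2 difference 1.96, SE 0.565). Acaca, Scd1 and Me1 had log2 differences of 0.84, 0.61 and 0.60 with overlapping libraries. That of Me1 was 0.17 to 1.34 with 1 library left out. The factors themselves are named outside the rule and with their values seen. Mlxip was at 4.71 to 6.45 FPKM in WT mice and 4.77 to 8.72 FPKM in Rarres2-/-, and Mlxipl was highest in WT replicate 1 at 47.8 FPKM, against 5.50 to 23.0 FPKM elsewhere.

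Foxo1, Foxo3, the glucocorticoid receptor gene Nr3c1 and textbook targets of these factors were described because Txnip is also known as a FoxO target. Of 21 tested members, 13 had a log2 difference above 0, and the median was 0.18. The genotypes were separated in 7 of them, 4 with Rarres2-/- higher (background 5.81%) and 3 with Rarres2-/- lower (background 4.53%). Ddit4, an inhibitor of mTORC1, was at 39.2, 14.9 and 16.7 FPKM in WT mice and 114, 88.4 and 70.6 FPKM in Rarres2-/-. Irs2, an adaptor of the insulin receptor, was at 4.72, 4.36 and 5.59 FPKM in WT mice and 14.9, 9.06 and 11.6 FPKM in Rarres2-/-. Tsc22d3 (GILZ) was at 92.6, 96.0 and 98.0 FPKM and 166, 266 and 188 FPKM. Their log2 differences were 2.01, 1.10 and 1.08, and with Pdk4 these are the 4 genes with Rarres2-/- higher. The order of the Rarres2-/- libraries for Ddit4, replicate 4 above 5 above 6, was that of Arrdc3, whereas Tsc22d3 was highest in replicate 5. In WT mice the orders differed, as WT replicate 1 was the highest for Ddit4 (39.2 FPKM) and the lowest for Arrdc3 (8.54 FPKM). Pik3ip1, Cdkn1b and Nr3c1, the 3 with Rarres2-/- lower, had log2 differences of -0.53, -0.32 and -0.24, and were named after their values were seen. Of these, Nr3c1 is the receptor gene itself and not a target.

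Immediate early genes, which are switched on within minutes of a stimulus, had 4 of 15 tested members above 0 and 11 below, with a median of -0.55. The genotypes were separated in 3 of them, Ier2, Ier3 and Junb, all with Rarres2-/- lower (background 4.53%). Ier3 was at 13.2 ± 4.68 FPKM in WT mice and 3.19 ± 1.44 FPKM in Rarres2-/-, and Junb at 19.1 ± 6.60 and 6.54 ± 2.78 FPKM (SD, n = 3 each). The log2 differences of Ier3, Egr1, Egr2 and Junb were -1.76, -1.53, -1.53 and -1.42, the opposite sign to Arrdc3. Egr1 and Egr2 overlapped between genotypes, and WT replicate 1 was their lowest WT library. That library stood apart in depth and in endothelial, muscle, macrophage and fibroblast markers, and the part of each in Egr1 and Egr2 was not tested.

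**Figure D5:**
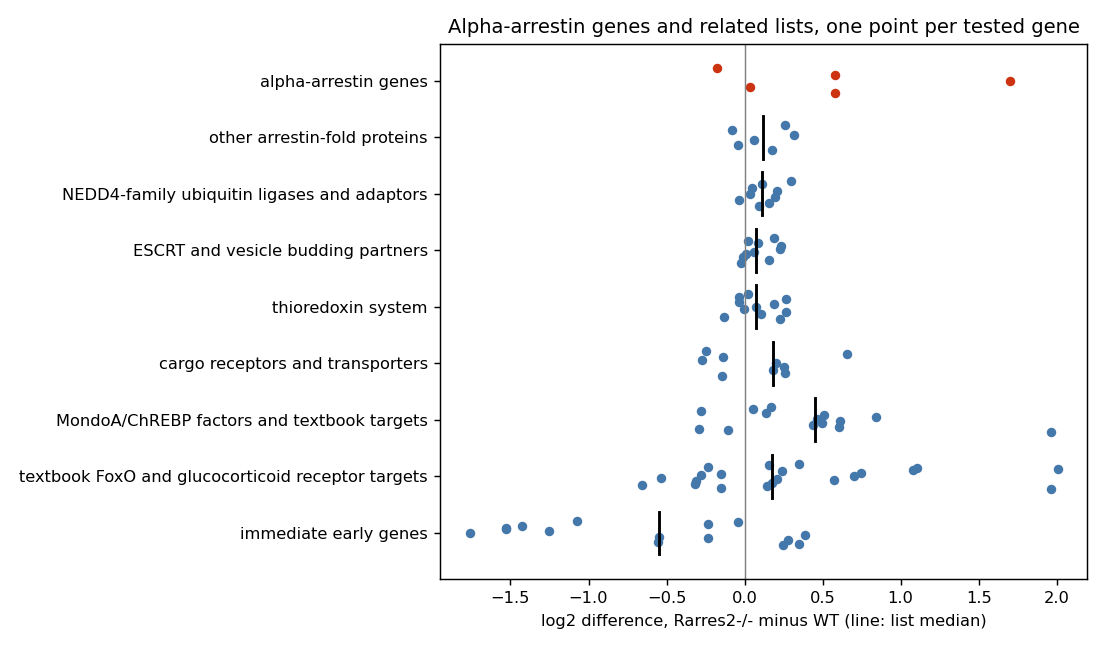
Log2 difference between genotypes (Rarres2-/- minus WT) for each tested gene of the alpha-arrestin family (red) and of the 8 related lists (blue, black line at the list's median). Arrestin-fold, NEDD4-family, ESCRT and thioredoxin genes lie between -0.13 (Nxn) and 0.31 (Vps26a), while Pdk4 (1.96) and Ddit4 (2.01) lie further out than Arrdc3 (1.70).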

How the data were processed

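Each of the 6 libraries had 1 table, deposited by the authors as FPKM per gene, per the file headers. For WT replicate 3 the header gives a sample name where the others give the unit, and its values were read as FPKM because genes and scale match. Bowtie and the build mm10 appear in the submitters' processing notes. The sources used here do not name the FPKM program, annotation, strand setting or versions. Because FPKM is scaled to the fragments of the library, a few abundant genes can move all others. Snord2 held 62.1% of the summed FPKM of WT replicate 1, which is not its share of fragments, since FPKM divides by length. Without small RNA genes that library summed to 608194 FPKM, within the range of the others (453919 to 678129). Its median over tested genes was 9.05 FPKM, against 9.05 to 9.37 FPKM in the others.

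Rows without a symbol (737, or 0.793% to 4.91% of the summed FPKM) were left out. Testing covered the 11086 of 17342 genes whose mean reached 1 FPKM, on log2(FPKM + 1), a scale that understates changes of low genes, using limma 3.58.1 (R 4.3.3; linear model with a moderated, trended variance; two-sided), genotype as the only term, Benjamini-Hochberg adjusted p under 0.05. Of the units allowed for in the design, the branch for FPKM was used.

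The members, the 8 related lists and the 8 cell-type marker lists were chosen with earlier results of these data known. Named genes are the 5 alpha-arrestins, up to 4 tested genes per related list with the largest absolute log2 difference, the 3 tested genes nearest in pattern to each member (predicted gene models left out), and Rarres2. Exceptions are marked where they occur. A gene that the rule names is not reported here. List symbols without a row numbered 4, and 2 were matched by an older symbol. Marker lists not described in the report were T and B cells of lymph node (summed 2.60 to 35.0 FPKM in WT mice and 5.08 to 17.9 FPKM in Rarres2-/-), erythroid cells (576 to 884 and 482 to 863) and mammary and skin epithelium (0.269 to 0.377 and 0.154 to 1.66). The sums of fibroblasts and progenitors were 1452 to 5761 FPKM in WT mice and 2706 to 2854 FPKM in Rarres2-/-. Coordinates and promoter sequences are from RefSeq on GRCm38.p6, the assembly that mm10 stands for. Overlaps between genes are from the GENCODE annotation, whose gene bounds can differ from those of RefSeq. All 5 genes matched by symbol. Motifs were searched on both strands, and single motifs could overlap.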

Additional observations from a re-analysis of the deposited data

How the results depend on the processing

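The signs of the differences of Arrdc1, Arrdc2, Arrdc3 and Txnip were the same under every alternative run (scaling by upper quartile or with the 20 most abundant genes set aside, quantile normalization, an unfiltered table, at least 5 FPKM in 3 libraries, a pseudocount of 0.1, array weights, no trend, each library left out, and WT replicate 1 and Rarres2-/- replicate 4 left out together). Their log2 differences ran from -0.33 to -0.02 for Arrdc1, 0.24 to 0.96 for Arrdc2, 1.30 to 1.93 for Arrdc3 and 0.25 to 0.87 for Txnip. Arrdc2 has no value under the 5 FPKM filter. With array weights the log2 difference of Arrdc3 was 1.50. No call is read for the 5 genes. Arrdc4 reversed with array weights (-0.071) and in 4 fits with fewer libraries (-0.019 without Rarres2-/- replicate 4, -0.018 without Rarres2-/- replicate 5, -0.17 without WT replicate 1, -0.23 without WT replicate 1 and Rarres2-/- replicate 4), and ran from -0.17 to 0.15 with 1 library left out. The cause was not tested.

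The number of genes called was 0 in the analysis as reported, 1524 with array weights, 68 without WT replicate 1 and Rarres2-/- replicate 4, 1 (Rarres2) with upper-quartile scaling, with the 20 most abundant genes set aside and with the 5 FPKM filter, and 0 to 1 with 1 library left out (Rarres2 without Rarres2-/- replicate 5, Snord4a without Rarres2-/- replicate 6). Of the 94 tested genes of the related lists, 22 were called with array weights (13.7% of all tested genes were). Without WT replicate 1 and Rarres2-/- replicate 4, 4 of the 94 were called (Ddit4, Egr2, Ier2 and Junb), against 0.613% of all tested genes. Nothing is read from these counts, since the lists were chosen with earlier results of these data known. No paired analysis was possible because the genotypes share no replicate number. No scaling moved the median of all genes by over 0.1. FPKM holds no counts, so counting error is unknown, and WT replicate 1 is the shallowest library.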
